A study of Mus musculus with 49 samples.

Results

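The proteasome is the protease complex that degrades ubiquitin-tagged proteins, and its subunit genes were followed here across developing mouse B cells that had kept, lost or lacked a surface IgM receptor, or whose receptor signals were blocked by herbimycin A, a tyrosine kinase inhibitor. Genes were taken by their symbols: a probe set of the U74Av2 array had to match 1 gene whose symbol begins with Psma, Psmb, Psmc, Psmd or Psme, leaving out Psmb8 and Psmb9, and the probe set with the highest mean stood for a gene with several. Of 44 probe sets that name such a gene, 41 passed, for 37 genes of the 7417 that the table names singly, and the probe set of the activator gene Psme2 was lost because it also matches Psme2b. The letters also took Psmc3ip, which encodes a meiotic recombination factor, and Psme3ip1, so both are given apart and the 35 genes of the proteasome, its assembly chaperones and its activators are counted below.

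The barrel of the complex, the 20S core, is a stack of rings of alpha subunits (Psma genes, which gate the entrance) and beta subunits (Psmb genes, which hold the cutting sites). A 19S cap on its end unfolds substrates with a ring of ATPases (Psmc genes) in its base and removes ubiquitin in its lid (both with Psmd genes). Interferon exchanges the catalytic subunits Psmb5, Psmb6 and Psmb7 for Psmb8, Psmb9 and Psmb10, which gives the immunoproteasome, and the Psme genes encode other caps that activate the core. Rapidly growing cells and cells under protein-folding stress are known for high demand on this machinery.

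RNA was measured as the hybridization signal of each probe set in arbitrary units, on 37 U74Av2 arrays of 10 sorted populations and, for antigen, on 6 U74A arrays. Ctrl-Mhi cells (n = 4) were IgM-high immature B cells of B1-8h/3-83(kappa) mice (so labelled, with the heavy chain allele named B1-8f in the study's methods), which carry knocked-in heavy and light chain alleles. Cre-Mhi and Cre-Mlo cells (n = 4 each) were the IgM-high and IgM-low sorts of the same genotype with Mx-Cre, a recombinase that interferon switches on and that deletes the heavy chain. By PCR, the study found the heavy chain allele already deleted in part of the Cre-Mhi cells, and it described their expression as intermediate. All 3 came from marrow cultures given IL-7 (16 ng/ml) for 5 d, followed by 2 d of IFN (interferon-alpha/beta, 1000 units/ml) with IL-7 withdrawn. GFPpos and GFPneg cells (n = 3 each) came from IL-7 cultures of mice with both an anti-hen egg lysozyme receptor transgene (HEL-Ig) and Rag-2-GFP, in which Rag2 control elements drive GFP. GFPpos cells were IgM+ GFP+ after 1 d in 400 ng/ml herbimycin A and GFPneg cells IgM+ GFP- after 1 d without it, so the drug and the GFP gate cannot be told apart. B6-M- cells (n = 3) were B220+ IgM- cells of IL-7 cultures of C57BL/6 marrow, with no IFN. FxD pre-B cells (B220+ CD43- IgM-) and FxE immature B cells (B220+ IgM+ IgD-), n = 3 each, were sorted directly from Balb/c marrow, and their RNA was amplified in 2 rounds. FxE Ctrl (n = 4) and FxE HA (n = 6) were the same immature gate from Bcl-2 transgenic marrow after 24 or 48 h in medium or in herbimycin A, whose dose is not given for these cells. HEL 48 h and Ctrl 48 h cells (n = 3 each) were HEL-Ig cells with Rag-2-GFP, sorted IgM-high GFP+ after 48 h with 1 µg/ml lysozyme or GFP- after 48 h without it, so antigen and gate cannot be told apart either. Mice were generally 4 to 8 wk old, per the study's methods.

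The median probe set read 345.9 to 544 units, depending on the array. The median of the 37 genes taken by symbol averaged 4930 units. Shares over all probe sets, given below as background, thus come mostly from dimmer ones and are not matched for brightness. The summed signal of 6 B cell markers was high in every population (59348.4 to 181841.2 per array). Single markers differed, with Ms4a1 averaging 1511 in B6-M- and 40166 in Ctrl-Mhi arrays, but Blk 29690 and 31538. The sum over 11 myeloid markers ran from 2512.6 to 5277.9 in the IL-7 cultured groups. In FxD, FxE, FxE Ctrl and FxE HA arrays it ran from 30092.1 to 277000.3. In sorted bulk samples fewer cells of a type and less RNA per cell cannot be told apart. Signals below 20 were raised to 20, and a gene is called higher or lower at a limma adjusted p under 0.05, adjusted over all 9977 probe sets of the table. Differences are given in log2 with their SE, so that 1 is a doubling, and levels are not compared between genes, since each probe set has its own brightness. Ctrl-Mhi arrays serve 4 of the comparisons and GFPneg arrays 2, so those comparisons are not independent of each other.

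Promoters are shown first for 4 genes picked by hand, each of which holds the motif marked in it. Psme4 and Psmc6 were called in a comparison below, and Psmb6 and Psme1 in none. They run from 250 bases before to 50 after the RefSeq gene start (GRCm38.p6), and 29 of the 35 genes have an entry. Psma2, Psmd1 and Psmd14 were also called below and have an entry, but are not shown. The part of any motif in the results was not tested. The first 3 hold TGACNNNGC, the core of the antioxidant response element to which Nrf2 (the product of Nfe2l2) is known to bind. Psme4, the activator PA200, was the strongest call among the 35 genes and lies at chr11:30771525-30771824, Psmc6, an ATPase of the base, at chr14:45329574-45329873, and Psmb6, the catalytic subunit with caspase-like activity, at chr11:70525107-70525406. The promoter of Psme1, an interferon-induced activator that often moved apart from the others, at chr14:55578244-55578543, holds GAAA, any 2 bases and GAAA again, the core of the interferon-stimulated response element. All 4 are on the plus strand, written 5′ to 3′, and capitals mark the motif on either strand.
Psme4: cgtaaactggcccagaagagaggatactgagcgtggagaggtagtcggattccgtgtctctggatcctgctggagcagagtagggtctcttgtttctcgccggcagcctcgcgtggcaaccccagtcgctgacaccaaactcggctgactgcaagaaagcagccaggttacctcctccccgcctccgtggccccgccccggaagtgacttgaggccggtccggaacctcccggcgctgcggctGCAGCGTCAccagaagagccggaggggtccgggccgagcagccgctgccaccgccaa
Psmc6: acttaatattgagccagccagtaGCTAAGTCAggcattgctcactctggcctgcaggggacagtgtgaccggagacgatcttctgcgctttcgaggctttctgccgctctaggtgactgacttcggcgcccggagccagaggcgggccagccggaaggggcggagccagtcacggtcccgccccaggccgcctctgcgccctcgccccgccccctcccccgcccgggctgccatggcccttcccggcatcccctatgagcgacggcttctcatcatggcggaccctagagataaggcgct
Psmb6: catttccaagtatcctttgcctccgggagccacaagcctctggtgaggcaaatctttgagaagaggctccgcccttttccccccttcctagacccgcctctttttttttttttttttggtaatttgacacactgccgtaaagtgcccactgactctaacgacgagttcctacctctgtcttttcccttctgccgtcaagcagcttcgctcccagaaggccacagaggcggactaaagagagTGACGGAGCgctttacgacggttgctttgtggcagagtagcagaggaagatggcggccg
Psme1: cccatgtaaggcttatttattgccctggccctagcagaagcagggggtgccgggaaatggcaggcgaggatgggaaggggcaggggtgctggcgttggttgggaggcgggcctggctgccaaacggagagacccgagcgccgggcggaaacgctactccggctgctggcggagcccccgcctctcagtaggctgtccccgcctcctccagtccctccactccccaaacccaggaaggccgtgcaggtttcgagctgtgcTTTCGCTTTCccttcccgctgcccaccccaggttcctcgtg

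The TGACNNNGC core stood in the promoters of 6 of the 29 genes (20.7%, Psmb5, Psmb6, Psmc6, Psmd9, Psmd12 and Psme4) and of 14% of the 27025 genes with a promoter. The interferon-stimulated core stood in 4 (13.8%, Psmb3, Psmd4, Psmd9 and Psme1) against 3.99% of all genes. The pattern TTCNNNGAA stood in 1 (3.45%, Psmd2) against 9.55%, and heat shock elements were not counted. CGGAAG, the core bound by ETS factors, was in 17 (58.6%), Psme4 and Psmc6 among them, against 18.8% of all genes, and CCAAT in 11 (37.9%) against 41.1%. Both strands were searched, motifs may overlap, and these matches are letters in a window and not shown sites. Psmb1, Psmb2, Psmb7, Psmc3, Psmd3 and Psmd7 are named only.

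**Figure D1:**
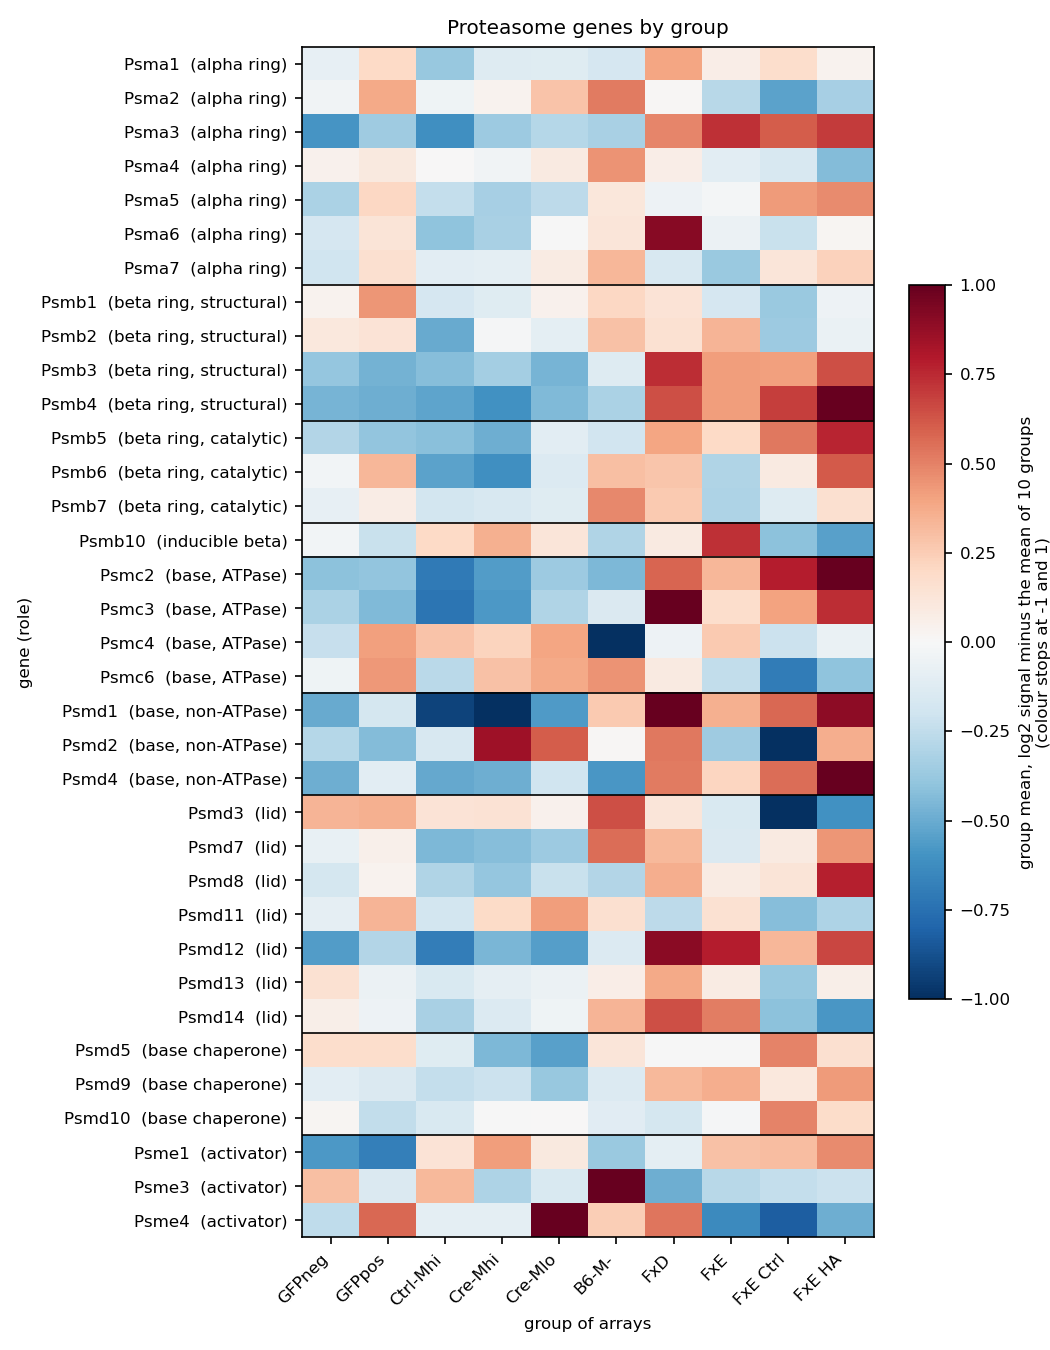
Group means of the 35 genes (rows, by role) in 10 populations (columns), as log2 signal minus the mean of the 10 group means, with colour stopping at 1 in either direction. Ctrl-Mhi is the lowest group for 8 genes and FxE HA the highest for 9. Psmb10, Psme1 and Psme4 run apart from the rows around them, as do others such as Psmd3 and Psmd11 of the lid.

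Across populations the genes moved over a modest range. The highest group mean exceeded the lowest by 1.63-fold (Psma7, an alpha subunit) to 5-fold (Psmd1, the largest scaffold of the base), on the geometric scale. Group means were highest in FxE HA for 9 genes, in B6-M- for 8 and in FxD for 8, and lowest in Ctrl-Mhi for 8 and in FxE Ctrl for 8. Taking for each array the median of the 35 genes, each centred on its own mean over the 37 arrays, Ctrl-Mhi arrays stood at -0.31 ± 0.10 (SD, n = 4), Cre-Mhi at -0.21 ± 0.05 and Cre-Mlo at -0.10 ± 0.02 (n = 4 each). GFPneg stood at -0.14 ± 0.04, GFPpos at 0.03 ± 0.04 and B6-M- at 0.06 ± 0.12 (n = 3 each). The fraction arrays were more scattered, with FxE at 0.09 ± 0.18, FxD at 0.32 ± 0.15, FxE Ctrl at 0.06 ± 0.16 (n = 4) and FxE HA at 0.31 ± 0.22 (n = 6), where array 6 reached 0.73. FxD and FxE HA had the highest means, while FxE and FxE Ctrl arrays overlapped those of GFPpos and B6-M-.

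**Figure D2:**
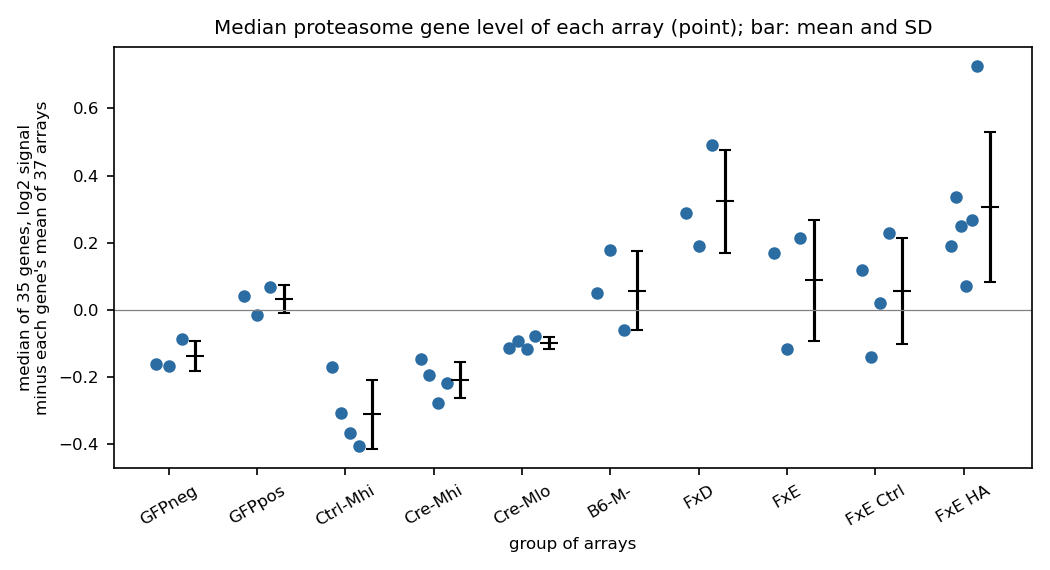
Median of the 35 genes on each of 37 arrays (points), in log2 signal after each gene's mean over the arrays was taken off, with the mean and SD of each group as bars. The Ctrl-Mhi, Cre-Mhi and Cre-Mlo arrays all lie below 0, and FxE HA array 6 is the highest of all at 0.73.

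Not every gene followed that median. Over the 37 arrays the correlation of a gene with the median of the other 34 ran from -0.46 (Psmd3, of the lid) to 0.82 (Psmc3, an ATPase), and it was 0.80 for Psmb6, -0.20 for Psme4 and -0.28 for Psmb10. It was also -0.36 for Psme3, -0.30 for Psmd11 of the lid, -0.13 for Psmc6 and 0.15 for Psme1. The 10 genes outside the list closest to the median were Sf3a3 (r = 0.87), Mdh2, Sdhb, Mrpl21, Atp5o, Cope, Cct3, Cops6, Eif2b1 and Mrpl28 (r = 0.82). All such values share the arrays and their scaling, and they are descriptions over 37 arrays with no test.

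Herbimycin A was compared first in HEL-Ig cells. None of the 35 genes was called in GFPpos against GFPneg cells (limma, with a background of 1.37% of all probe sets called higher and 1.21% lower), with 6 higher and 0 lower at an unadjusted p under 0.05 (9.96% and 10.9% of all probe sets). The methods' t-test, with its fold and size criteria, called 0 as well (background 0.641% higher and 1.19% lower). The median difference was 0.13 against -0.02 over all probe sets, 23 genes lay above 0, and on 13 of them all 3 GFPpos arrays stood above all 3 GFPneg arrays (background 14.1%), with 2 the other way (15.2%). The median was 0.06 without GFPneg array 2, 0.21 without GFPneg array 3 and 0.23 with each array centred on its median.

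All 7 alpha ring genes lay above 0, between 0.05 and 0.52. Psma5 gave means of 6768 and 4727 (0.52, SE 0.14, adjusted p = 0.124) and Psma2 of 16236 and 12156 (0.42, SE 0.12, adjusted p = 0.145). Psma2 signals were 16193, 15317 and 17197 in GFPpos and 12292, 12107 and 12069 in GFPneg arrays, which do not overlap. Psmd11, a lid subunit, gave 7665 and 5700 (0.43, SE 0.13, adjusted p = 0.154).

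The catalytic genes did not move as a set. Psmb6 read 6023, 7266 and 7917 in GFPpos and 5552, 5866 and 5086 in GFPneg arrays, so that every treated array was higher (0.35, SE 0.16, adjusted p = 0.289). Psmb5, the chymotrypsin-like subunit, read 3013, 4189 and 4630 against 3305, 4630 and 4729 (-0.10, SE 0.24, adjusted p = 0.86). Psmb7, the trypsin-like subunit, read 3846, 3698 and 4326 against 3342, 3484 and 3764 (0.16, SE 0.14, adjusted p = 0.572). Both of these overlap.

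The inducible genes lay just below 0. Psmb10 read 7236, 9485 and 10423 in GFPpos and 9875, 10203 and 10617 in GFPneg arrays (-0.19, SE 0.18, adjusted p = 0.611). Psme1 read 7192, 6749 and 7486 against 7005, 7709 and 8409 (-0.11, SE 0.14, adjusted p = 0.728). Neither separated the groups. The remaining immunoproteasome and class I genes measured (6, none of them among the 35) included 3 that fell: Psmb8 from 17144 to 8854 (-0.96, adjusted p = 0.0485), Psmb9 from 7553 to 3442 (-1.14, adjusted p = 0.039) and the peptide transporter Tap1 from 8911 to 2479 (-1.85, adjusted p = 0.023).

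Psme4 had the largest difference of the 35. Its signals were 5981, 3864 and 4479 in GFPpos and 2218, 2786 and 2994 in GFPneg arrays, with no overlap (0.83, SE 0.22, adjusted p = 0.124). Psme3, the nuclear activator PA28 gamma, had the lowest difference, -0.45. Of the list of assembly factors and partners (15 measured), Nfe2l2 alone was called higher, from 1773 to 4408 (1.32, adjusted p = 0.029), and the list's median was 0.15. Of 19 genes of the heat shock list 6 were called higher and 0 lower, with a median of 0.88, among them Hsph1 (from 1971 to 16103, 3.01, adjusted p = 0.0132) and Hspa8 (from 9476 to 39074, 2.03, adjusted p = 0.0278). The summed B cell markers ran from 95330.6 to 107203.4 in GFPpos against 144614 to 152024.6 in GFPneg arrays, with 0 of 6 called. Among them the mean of Blk rose, from 22403 to 31600. The proliferation list had a median of -1.98 with 0 of 20 called, and the part of both lists in these values was not tested.

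**Figure D3:**
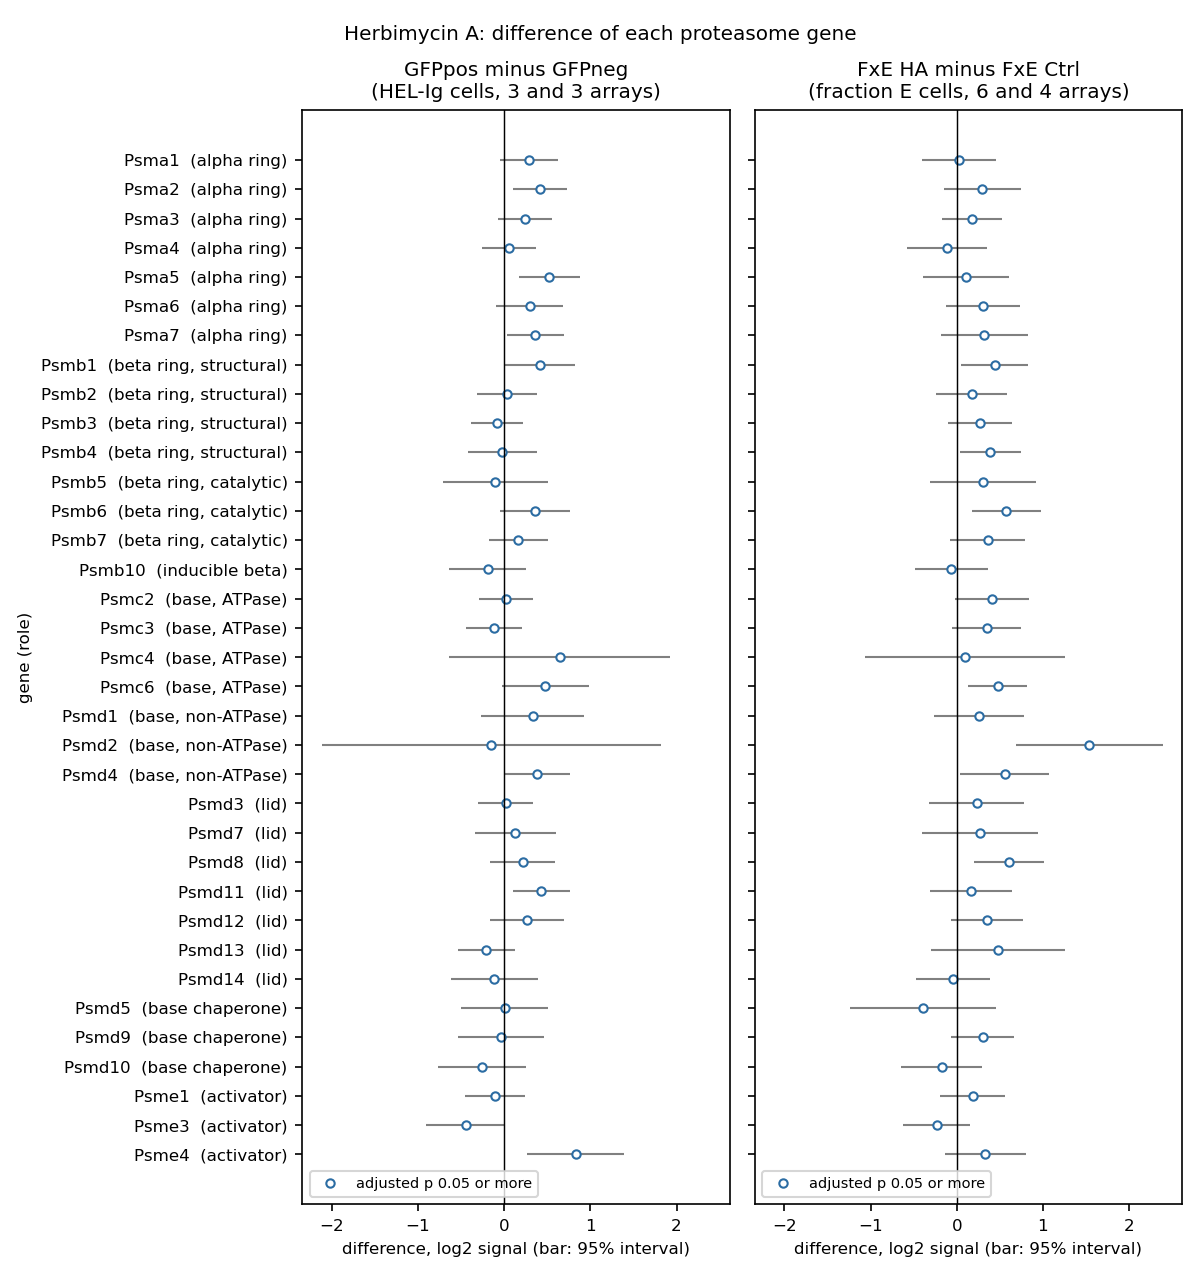
Difference of each of the 35 genes (rows, by role) with herbimycin A in HEL-Ig cells (left, 3 and 3 arrays) and fraction E cells (right, 6 and 4 arrays), in log2 signal with 95% intervals. Open points have an adjusted p of 0.05 or more, which holds for all genes in both panels, and most points lie right of 0 (23 and 29 of 35).

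In fraction E cells, with hours as a factor, again none of the 35 was called with herbimycin A (limma, background 1.18% higher and 2.19% lower), with 7 higher and 0 lower at an unadjusted p under 0.05 (background 7.71% and 7.82%) and 0 by the methods' t-test (0.762% and 1.43%). The median difference was 0.30, against 0.07 over all probe sets, and 29 of 35 genes lay above 0 where 56.1% of all probe sets did. It was 0.30 in the 24 h arrays, 0.31 in the 48 h arrays and 0.20 without FxE HA array 6. All 6 FxE HA arrays stood above all 4 controls on 3 genes (background 2.33%), Psmd2, Psmd8 and Psmb4, and below them on 0 (3.53%). Of these, Psmd8 of the lid gave means of 8371 and 5320 (0.61, SE 0.18, adjusted p = 0.12), and Psmb4 of 30732 and 23264 (0.39, SE 0.16, adjusted p = 0.272). Psmd2 had the smallest adjusted p (0.0634, 1.54, SE 0.38), on dim signals of 220 and 76. Without FxE Ctrl array 1, 1 of the 35 genes was called, a count for which no background share is given.

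All 3 catalytic genes lay above 0. Psmb6 read 8523, 7969, 6656, 7392, 9258 and 12437 in FxE HA against 6162, 5222, 5707 and 6801 in FxE Ctrl arrays, so that all but the lowest treated array were above every control (0.58, SE 0.18, adjusted p = 0.14). Psmb7 ran from 2898 to 6082 (median 4164) against 2851, 3218, 3714 and 4048 (0.36, SE 0.19, adjusted p = 0.439). Psmb5 ran from 4536 to 12803 (median 9173) against 5716, 7212, 8589 and 8174 (0.30, SE 0.27, adjusted p = 0.678). The latter pair overlapped widely.

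Psmc6 split by hours as well as by drug. At 24 h it read 5187, 4118, 4930 and 5108 with herbimycin A and 3594 and 3450 without, and at 48 h 10794 and 9939 with and 7719 and 6891 without (0.47, SE 0.15, adjusted p = 0.151). Within each time every treated array was higher, while over both times the groups overlapped. Psmb10 ran from 4937 to 10334 (median 7364) against 6871, 7600, 8742 and 8242 (-0.06, SE 0.19, adjusted p = 0.92), and Psme1 from 12189 to 18547 (median 16213) against 14571, 14173, 13896 and 14015 (0.18, SE 0.17, adjusted p = 0.684). Psme4 read 1937, 2304, 1817, 2927, 2604 and 2127 against 1585, 2350, 1593 and 1705 (0.33, SE 0.21, adjusted p = 0.522).

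Beside these small values, 13 of 19 heat shock genes were called higher and 0 lower in the same arrays (median 1.67), Hspa1a from 389 to 4001 (3.08, adjusted p = 0.000918) and Hsp90aa1 from 7140 to 37432 (2.43, adjusted p = 0.00205) among them. Psmb8, Psmb9 and Tap1 were again called lower, by -1.18, -1.01 and -1.52, while none of 15 assembly factors and partners was called (median 0.25). The B cell marker sum was lower with the drug, 67345.2 to 97217.9 against 119188.6 to 157596.2. Of the 6 markers 3 were called lower (Ms4a1, Cd22 and Ptprc), while the mean of Cd79a rose from 18202 to 20570. The myeloid sums overlapped (30092.1 to 137510.2 against 30880 to 129978.8), and the part of neither marker set was tested. The difference between both herbimycin A effects, tested as a contrast of contrasts, was called for 0 of the 35 genes (limma, background 0.341% higher and 0.351% lower), with 0 at an unadjusted p under 0.05 (5.57% and 6.6%). Its median was -0.13 (HEL-Ig minus fraction E), but -0.04 without FxE HA array 6, -0.08 without FxE HA array 4 or GFPpos array 1, and -0.00 with median centring, and for Psme4 it was 0.50 with a 95% interval of -0.19 to 1.18.

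Cre-Mlo cells, which had lost the receptor, gave the clearest single change. Against Ctrl-Mhi, loss of the receptor, Mx-Cre and the IgM-low gate cannot be told apart. In Cre-Mlo against Ctrl-Mhi cells 3 of the 35 genes were called higher and 0 lower (background 4.23% higher and 4.1% lower): Psme4, Psmc6 and Psmc3. At an unadjusted p under 0.05 there were 14 higher (background 10.2%) and 1 lower (10.7%). The median was 0.19 against -0.04 over all probe sets, 27 genes lay above 0 where 45.5% of all probe sets did, and on 12 genes all Cre-Mlo arrays were above all Ctrl-Mhi arrays (background 8.43%), with 1, Psme3, the other way (8.26%). The methods' t-test called Psme4 alone higher (background 1.54%) and 0 lower (1.31%).

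Psme4 read 6866, 6409, 6520 and 6324 in Cre-Mlo arrays and 3051, 2578, 3359 and 2889 in Ctrl-Mhi arrays, so the lowest Cre-Mlo signal was far above the highest control. Means were 6530 ± 238 and 2969 ± 326 (SD, n = 4 each, 2.21-fold, 1.14, SE 0.14, adjusted p = 0.000489). Cre-Mhi arrays, of the same genotype and still IgM-high though part of the cells had deleted the allele, read 2997, 2849, 2458 and 3646. These overlap the controls (0.00, SE 0.14, 95% interval -0.30 to 0.30). Cre-Mlo against Cre-Mhi gave 1.14 (SE 0.14, adjusted p = 0.000593). Both are sorts of Mx-Cre cultures, and the fit did not pair their replicate numbers, here or in the other values of this comparison.

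Psmc6 read 11154, 12538, 10099 and 9230 in Cre-Mlo and 5326, 7566, 6587 and 8180 in Ctrl-Mhi arrays (0.65, SE 0.16, adjusted p = 0.0275). Here Cre-Mhi arrays read 9885, 11339, 9732 and 9459, level with Cre-Mlo and above every Ctrl-Mhi array (0.56, SE 0.16, adjusted p = 0.554 over all probe sets). Psmc3 read 3441, 3514, 3462 and 3230 in Cre-Mlo, 2382, 2949, 3119 and 2875 in Cre-Mhi and 2637, 2470, 2658 and 2334 in Ctrl-Mhi arrays, so Cre-Mhi lay between them (Cre-Mlo minus Ctrl-Mhi 0.44, SE 0.11, adjusted p = 0.0381). The Psmc3 call does not hold on its dimmest probe set (0.09, adjusted p = 0.854), and it was lost without any 1 of the 8 arrays (adjusted p of 0.0564 to 0.1). The Psmc6 call was lost without Cre-Mlo array 1, 2 or 3 or Ctrl-Mhi array 1 or 3 (adjusted p of 0.0515 to 0.0842) and in 1 fit of all 37 arrays (0.244). Without Cre-Mlo array 1, 2 or 3 or Ctrl-Mhi array 3 only 1 of the 35 genes was called, with no background share given.

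The catalytic genes again differed from each other. Psmb5 read 4879, 4955, 4176 and 5001 in Cre-Mlo, 3720, 3820, 3325 and 3698 in Cre-Mhi and 3740, 3832, 4084 and 3647 in Ctrl-Mhi arrays. Every Cre-Mlo array was thus above the others (0.31 against Ctrl-Mhi, adjusted p = 0.11, and 0.38 against Cre-Mhi, adjusted p = 0.0638). Psmb6 read 5627, 4634, 4743 and 5391 in Cre-Mlo, 3894, 3598, 3482 and 3647 in Cre-Mhi and 5554, 3259, 4123 and 2943 in Ctrl-Mhi arrays, where control array 1 overlapped (0.40, adjusted p = 0.244). Psmb7 stayed between 2801 and 3885 in all 12 arrays (0.06, SE 0.12, adjusted p = 0.836, 95% interval -0.21 to 0.34).

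The inducible genes leaned the other way within the Cre cultures. Psme1 read 11410, 12424, 13263 and 12004 in Cre-Mlo and 14479, 15907, 17264 and 13650 in Cre-Mhi arrays, all lower (-0.32, SE 0.12, adjusted p = 0.198). Psmb10 read 9811, 11411, 12594 and 11714 against 12866, 13142, 14141 and 13116, also all lower (-0.23, SE 0.12, adjusted p = 0.346). Against Ctrl-Mhi (Psme1 11598, 13230, 11482 and 14331, Psmb10 12776, 11947, 10554 and 12618) both overlapped, at -0.04 and -0.07.

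Cre-Mlo against Cre-Mhi called 1 of 35 genes higher, Psme4, and 0 lower (background 3.14% and 2.95%), with a median of 0.09 (0.06 without Cre-Mlo array 2). At an unadjusted p under 0.05 there were 6 higher and 1 lower (8.82% and 8.54%), 7 genes were higher and 2 lower on all arrays (7.38% and 6.47%), and the methods' t-test again called Psme4 (1.31% higher and 0.862% lower). Cre-Mhi against Ctrl-Mhi called 0 (limma, background 0% higher and 0.02% lower), with 6 higher and 1 lower at an unadjusted p under 0.05 (3.47% and 3.66%), 0 by the methods' t-test (0.0401% and 0%), 4 genes higher on all arrays and 0 lower (1.78% and 2.12%). Its median was 0.05, but 0.03 without Cre-Mhi array 1, 0.08 without Cre-Mhi array 2, 0.10 without Ctrl-Mhi array 1 and 0.02 without Ctrl-Mhi array 4. Of the other lists, Nfe2l2 was called higher in Cre-Mlo cells, from 2556 to 5439 (1.09, adjusted p = 0.000471), as the only one of 15 assembly factors and partners, and of 19 heat shock genes 1 was higher (Hspa1b) and 1 lower (Hspb1). The summed B cell markers moved beside these values, from 156555.3 to 181841.2 in Ctrl-Mhi to 93510.2 to 103988.6 in Cre-Mlo arrays. Of the 6 markers 3 were called lower (Ms4a1, Cd22 and Ptprc), while the mean of Pax5 rose from 8599 to 10858. The proliferation list had a median of -0.74 with 1 of 20, Mcm6, called lower. Their part in the results was not tested. The effects of herbimycin A in HEL-Ig cells and of receptor deletion differed for 0 of the 35 genes (limma contrast of contrasts, background 0.261% and 0.12%), with 1 higher and 2 lower at an unadjusted p under 0.05 (6.44% and 5.78%) and, for Psme4, a difference of -0.31 (95% interval -0.83 to 0.20).

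**Figure D4:**
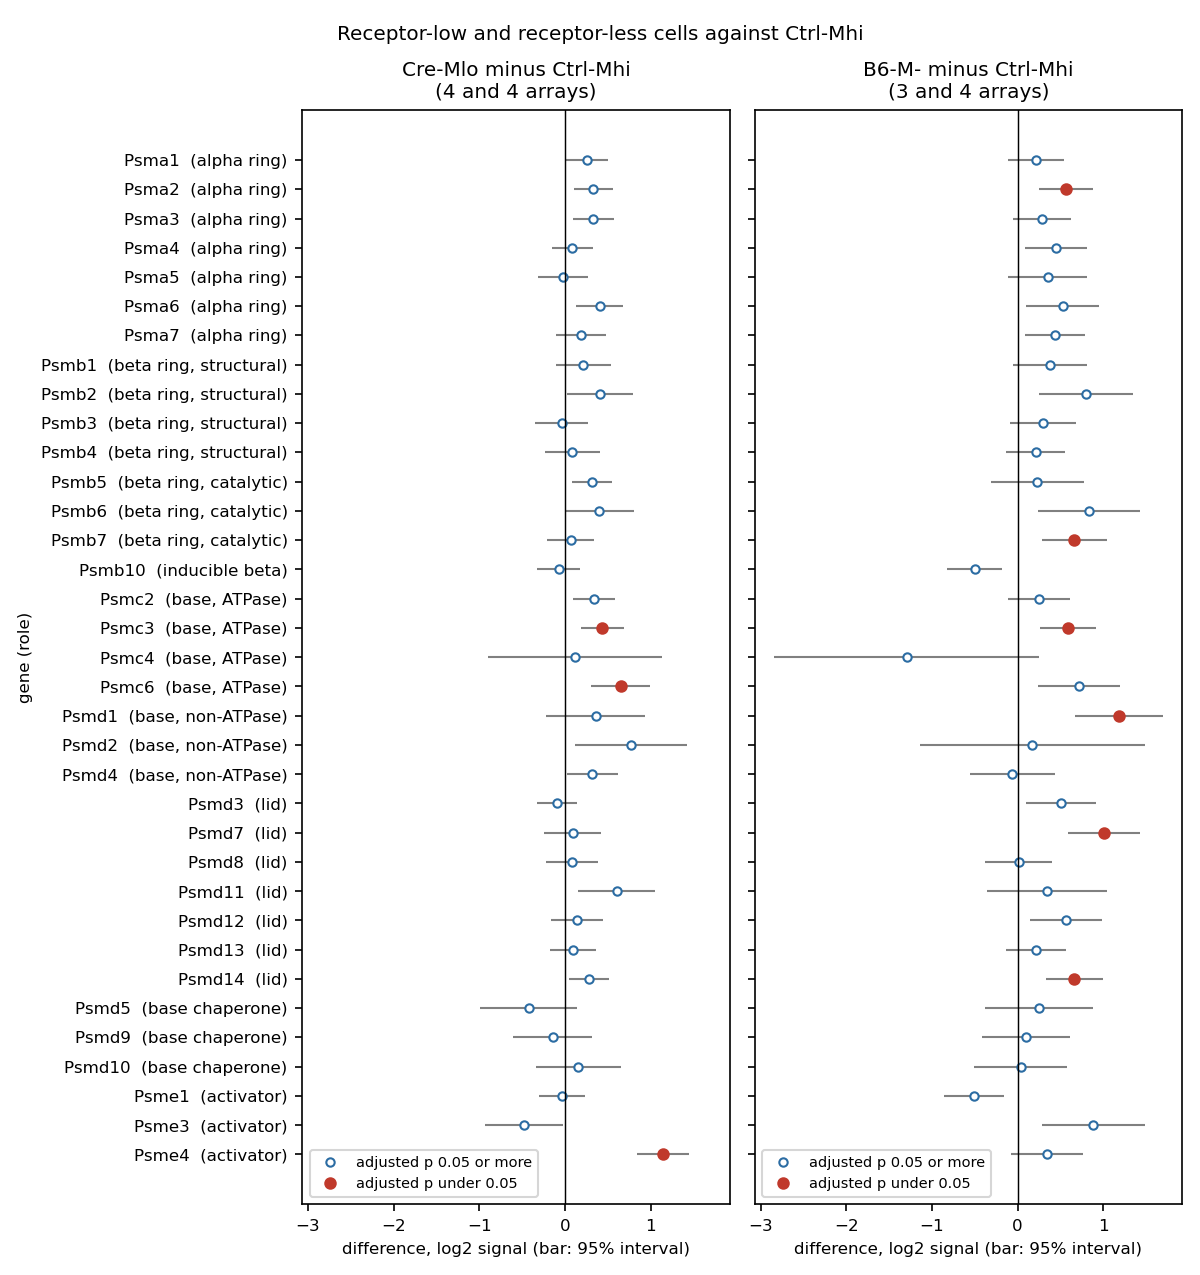
Difference of each of the 35 genes from Ctrl-Mhi in Cre-Mlo (left, 4 and 4 arrays) and B6-M- cells (right, 3 and 4 arrays), in log2 signal with 95% intervals. Filled red points have an adjusted p under 0.05 (Psme4, Psmc6 and Psmc3 on the left, 6 genes on the right), and both panels share the Ctrl-Mhi arrays.

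B6-M- cells, which carried no surface IgM, gave the most calls. Against Ctrl-Mhi 6 of 35 genes were called higher and 0 lower (background 6.91% and 7.3%), 31 lay above 0 where 41.6% of all probe sets did, and the median was 0.34 against -0.13. At an unadjusted p under 0.05 there were 15 higher and 2 lower (background 13.4% and 16.1%). On 20 genes all B6-M- arrays were above all Ctrl-Mhi arrays (background 13.7%) and on 2 below (15.7%), and the methods' t-test called 1 higher, Psmd1, and 0 lower (2.46% and 2.69%). Strain, receptor, IFN and IL-7 withdrawal differ at once here and cannot be told apart.

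Psmd1 read 5036, 5338 and 4482 in B6-M- and 2767, 2299, 2250 and 1576 in Ctrl-Mhi arrays (1.18, SE 0.21, adjusted p = 0.0144). Psmd7, which pairs with the deubiquitinase in the lid, read 5095, 6670 and 5348 against 3441, 2549, 2814 and 2556 (1.01, SE 0.18, adjusted p = 0.0133). Psmd14, the deubiquitinase itself, read 3473, 4134 and 3261 against 2318, 2254, 2220 and 2338 (0.66, SE 0.14, adjusted p = 0.0242). None of the 3 overlapped.

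Psmb7 read 4770, 5305 and 5634 in B6-M- against 3885, 3392, 3205 and 2801 in Ctrl-Mhi arrays (0.66, SE 0.16, adjusted p = 0.039), the only comparison in which a catalytic gene was called. Psmb6, at 7222, 7630 and 5886 against 5554, 3259, 4123 and 2943, had the larger difference but did not pass (0.84, SE 0.25, adjusted p = 0.0736), and Psmb5, at 3147, 5910 and 4832 against 3740, 3832, 4084 and 3647, overlapped (0.23, SE 0.23, adjusted p = 0.554). Psma2 (0.56, adjusted p = 0.0354) and Psmc3 (0.59, adjusted p = 0.0352) completed the calls, and Psmc3 turned to -0.12 on its dimmest probe set. Without B6-M- array 2 none of the 35 genes was called, and without B6-M- array 1 or 3, or Ctrl-Mhi array 2, 3 or 4, 2 or 3 were. No background share is given for these counts.

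The inducible pair ran against most of the rest. In all, 4 of the 35 genes lay below 0. The lowest was Psmc4, at -1.29 on dim signals (means of 82.2 and 167), and Psmd4 lay at -0.06. Psmb10 read 8807, 8405 and 8142 in B6-M- cells, below all 4 Ctrl-Mhi arrays (-0.50, SE 0.14, adjusted p = 0.0544), and Psme1 read 9016, 9365 and 8183, also below all of them (-0.51, SE 0.15, adjusted p = 0.0651). Tap1 (-1.16, adjusted p = 0.00237) and Tapbp (-1.29, adjusted p = 0.00281) were called lower, as were 11 of 17 interferon targets, with 2 higher. Of the other lists in the same arrays, 9 of 20 proliferation genes were called higher and 1 lower, 6 of 19 heat shock genes higher, and Psmg1, Psmg2 (both chaperones of 20S assembly) and Usp14 (a deubiquitinase of the cap) of the 15 partners, by 0.87, 1.08 and 0.98. The B cell marker sum was 87631.1 to 111569.1, below all Ctrl-Mhi arrays, and the part of cycling or of these markers in the proteasome values was not tested.

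**Figure D5:**
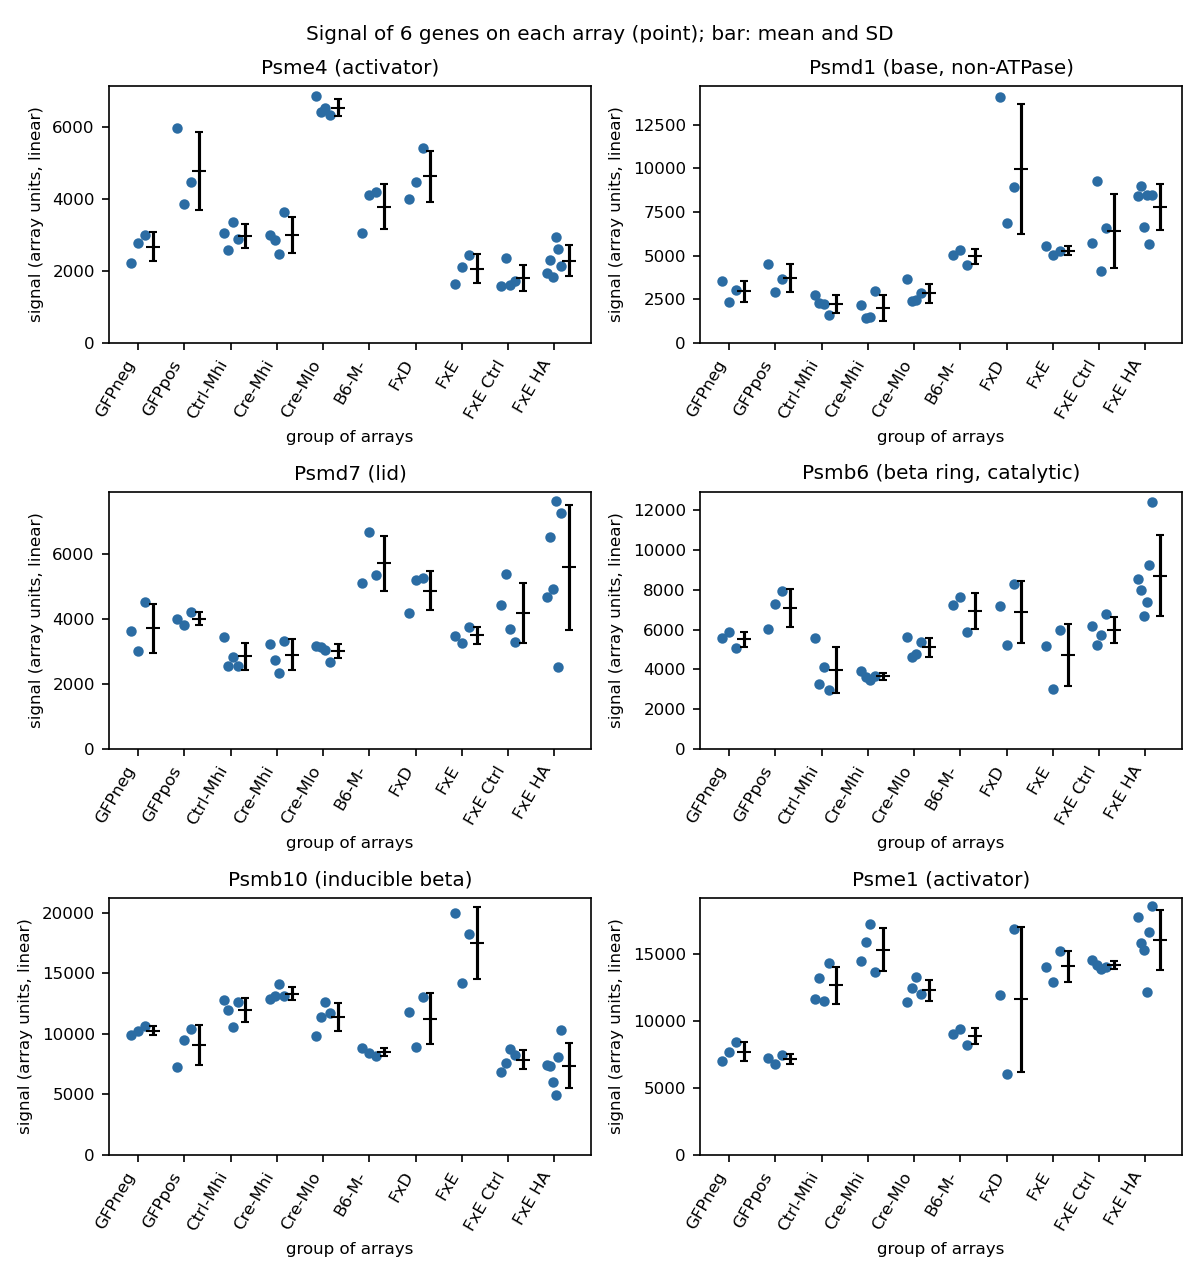
Signals of Psme4, Psmd1, Psmd7, Psmb6, Psmb10 and Psme1 on each of 37 arrays (points, linear units from 0) by population, with the mean and SD of each group. The 4 Cre-Mlo arrays are the highest for Psme4 (6324 to 6866), and for Psme1 the GFPneg, GFPpos and B6-M- arrays lie below all others except 1 FxD array.

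IFN itself has no matched untreated control among these arrays. The nearest comparison, Ctrl-Mhi (with IFN) against GFPneg (without), also differs in receptor, genotype, days of reculture and GFP gate, which cannot be told apart from IFN. Of 17 interferon targets 13 were called higher in it and 0 lower, with a median of 2.33. None of the 35 proteasome genes was called (limma, background 2.2% higher and 1.33% lower), with 1 higher and 5 lower at an unadjusted p under 0.05 (9.21% and 9.46%) and 0 by the methods' t-test (1.42% and 0.571%). On 1 gene all Ctrl-Mhi arrays were higher and on 7 lower (9.63% and 10.6%). Only 8 genes lay above 0 where 53.7% of all probe sets did, and the median was -0.12 against 0.04.

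The gene that was higher at the unadjusted threshold was Psme1. It read 11598, 13230, 11482 and 14331 in Ctrl-Mhi and 7005, 7709 and 8409 in GFPneg arrays, with no overlap and a wide gap (0.71, SE 0.15, adjusted p = 0.0533), just outside the threshold. Psmb10 overlapped through 1 array (12776, 11947, 10554 and 12618 against 9875, 10203 and 10617, 0.22, SE 0.13, adjusted p = 0.419). The 5 lower were Psmc3 (-0.41), Psmd14 (-0.38), Psmb2 (-0.61), Psmc2 (-0.29) and Psmd13 (-0.30), none passing adjustment. The catalytic genes Psmb5, Psmb6 and Psmb7 lay at -0.12, -0.51 and -0.10, all overlapping. Of their neighbours outside the list, Tap1 (1.02, adjusted p = 0.0133) and Tapbp (0.97, adjusted p = 0.0349) were called higher, while Psmb8 (0.11) and Psmb9 (0.49, adjusted p = 0.137) were not, and 5 of 20 proliferation genes were called lower.

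FxD pre-B cells against FxE immature B cells, the stages around first receptor expression, gave no call among the 35 (limma, background 1.74% higher and 1.25% lower), with 4 higher and 0 lower at an unadjusted p under 0.05 (7.52% and 6.65%) and 1 higher, Psme4, and 0 lower by the methods' t-test (2.35% and 2.82%). Psme4 read 4008, 4470 and 5404 in FxD and 1637, 2107 and 2440 in FxE arrays, without overlap (1.17, SE 0.27, adjusted p = 0.0923). Psma6 gave means of 24454 and 12478 (0.97, SE 0.25, adjusted p = 0.131), and Psmc3 (1.00) and Psmd1 (0.85) were the others. On 6 genes all FxD arrays were above all FxE arrays (background 10.8%) and on 1 below (9.43%), Psmb10, at 11766, 8910 and 13058 against 19962, 14193 and 18248 (-0.64, SE 0.27, adjusted p = 0.38).

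The catalytic genes in these fractions were scattered. Psmb6 read 7181, 5197 and 8290 against 5163, 3001 and 5980, Psmb5 3953, 8840 and 8678 against 7583, 3498 and 7627, and Psmb7 3587, 4530 and 5558 against 2772, 3140 and 3171. Only Psmb7 separated the groups (0.57, adjusted p = 0.414). Psme1 read 11961, 6046 and 16825 in FxD and 14032, 12893 and 15250 in FxE arrays (-0.39, adjusted p = 0.766). The median of the 35 was 0.25 with all arrays and 0.11 without FxE array 2, where Psmb5, Psmb6 and Psmc3 were all lowest. Of 20 proliferation genes 17 were called higher in FxD and 0 lower, and the myeloid sum was 37309.5 to 77853.6 in FxD against 67735.2 to 277000.3 in FxE arrays, whose parts were not tested.

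Antigen, in HEL 48 h against Ctrl 48 h cells on the separate U74A table, gave no call either (limma over 12588 probe sets, background 0.143% higher and 0.0874% lower), with 6 higher and 0 lower at an unadjusted p under 0.05 (4.75% and 6.81%) and 1 higher, Psmd1, and 0 lower by the methods' t-test (0.342% and 0.453%). Psmd1 read 4978, 5079 and 5296 with antigen and 842, 1708 and 1951 without, the largest difference of the 35 (1.86, SE 0.35, adjusted p = 0.13). Psme4 read 5001, 4512 and 5189 against 2526, 2767 and 3847 (0.71, SE 0.24, adjusted p = 0.344), and Psmb6 4863, 6993 and 7638 against 3350, 3519 and 4470 (0.77, SE 0.26, adjusted p = 0.348). None of these overlapped.

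All 7 alpha ring genes lay above 0 there (0.13 to 0.55), and 11 of the 35 genes had all antigen arrays above all controls (background 8.48%) with 1, Psmb10, below (12.1%). Psmb10 read 8526, 13648 and 13066 against 21617, 16452 and 14558 (-0.59, SE 0.29, adjusted p = 0.495). Psme1, at 7311, 10722 and 12016 against 17226, 11834 and 11125 (-0.42), Psmb5, at 1749, 3987 and 4952 against 4254, 4724 and 4666 (-0.48), and Psmb7, at 2779, 3339 and 4021 against 3727, 3392 and 4173 (-0.17), overlapped. The median of the 35 was 0.16 against -0.11 over all probe sets.

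Setting the values of Psme4 side by side, its difference was 1.14 in Cre-Mlo, 0.83 in GFPpos, 1.17 in FxD, 0.71 in HEL 48 h, 0.34 in B6-M- and 0.33 in FxE HA cells, each against its own IgM-high, untreated or later-stage group, with Cre-Mlo and B6-M- sharing Ctrl-Mhi. Groups did not overlap in the first 4 and did in the other 2, and only the Cre-Mlo difference passed adjustment. In order of the group means, Psme4 was highest in Cre-Mlo (6530), then GFPpos (4774 ± 1089), FxD (4627 ± 711) and B6-M- (3783 ± 634), whose SD ranges touch, then Cre-Mhi (2987), Ctrl-Mhi (2969), GFPneg (2666 ± 402), FxE HA (2286 ± 419), FxE (2061 ± 404) and FxE Ctrl (1808 ± 365).

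Cells sorted from marrow without IL-7 culture stood apart from IL-7 cultured cells in a few genes. On 5 of the 35, all 16 arrays of FxD, FxE, FxE Ctrl and FxE HA stood above all 21 arrays of the cultured groups, and on 0 below (background 1.35% and 3.21%). Psmb4 ran from 17442 to 35070 (median 24131) in marrow sorts and from 7196 to 12163 (median 10484) in cultures, Psma3 from 20946 to 42708 (26622) against 10903 to 15868 (13351), and Psmb3 from 13173 to 25078 (15775) against 7191 to 11172 (8764). Psmc2 ran from 6338 to 19211 (11206) against 3911 to 5546 (4828) and Psmd12 from 2272 to 5232 (2944) against 1130 to 2244 (1438). The median ratio of marrow over culture was 1.16 over the 35 genes and 0.976 over all probe sets. Myeloid marker sums were also higher in the marrow sorts (at least 30092.1 against at most 5277.9), while erythroid sums overlapped (6300.4 to 161998.3 against 1739.9 to 9569.8). The markers of a list differed. S100a8 averaged 41035 in FxE and 222 in Ctrl-Mhi arrays, but Csf1r 371 and 429. Hba-a1 averaged 134733 and 429, but Gata1 92.7 and 105. These cell types, strain and the IL-7 culture cannot be told apart here. The Bcl-2 transgene was carried by FxE Ctrl and FxE HA only, and amplification is given for FxD and FxE only.

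The genes taken by their letters alone moved on their own terms. Psmc3ip was called higher in B6-M- cells, from 55.7 to 332 units (2.59, SE 0.25, adjusted p = 0.00141), dim signals in both groups. Psme3ip1 gave 3892 and 2552 in GFPpos and GFPneg cells (0.60, SE 0.15, adjusted p = 0.0969) and was above every cultured array in all 16 marrow sorts. Among the 35, Psmc4 and Psmd2 were also dim (group means of 82.2 to 195 and of 76 to 286 units on U74Av2 arrays), and the probe sets of Psma3, Psmb4, Psmb5, Psmb7, Psmc3 and Psmd12 carry a suffix for probes that can be shared between transcripts or related genes, which these arrays cannot separate.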

How the data were processed

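RNA of sorted B lineage cells was hybridized to 1 Affymetrix array per sample. Per the labels and the study's methods, the authors computed the deposited intensities with Microarray Suite 5.0, scaled each array to a target of 1500 units and left out masked probe sets, so that values are relative to each array's own total. No read depth exists, and the number of arrays limits the precision. Here signals were floored at 20 units and compared as log2 values with limma 3.58.1 in R 4.3.3 (lmFit, eBayes), with Benjamini-Hochberg adjustment over all 9977 probe sets (12588 for U74A). Each comparison was fitted on its own groups, except that Ctrl-Mhi, Cre-Mhi and Cre-Mlo shared a fit, and FxE HA against FxE Ctrl had hours as a factor. Hours of these arrays come from a figure legend of the study.

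The methods' t-test allowed unequal variances and took linear signals (p under 0.01, or 0.05 for FxD against FxE) with a fold of at least 2 and a difference above 200 units. By rule any member could be named, with values in every array for Psmb5, Psmb6, Psmb7, Psmb10, Psme1 and up to 3 called members in each comparison and direction. Array values of other genes, such as uncalled Psme4, Psmd1 or Psma2, are given where they stood out and were chosen after their values were seen. Members and lists were chosen with earlier results of these data known. Probe sets were named through GEO's platform annotation. The fit was tested on simulated data with normal noise and known changes in log2 in 200 probe sets. It called 0% of changes of 0.5 in GFPpos and in FxE HA cells, and 16% and 12% of changes of 1. For Cre-Mlo against Ctrl-Mhi it called 0% of changes of 0.5 and 72% of changes of 1. Changes of 2 were called in 38% for FxD and 30% for HEL 48 h. In the data, 422 probe sets were called higher and 409 lower in Cre-Mlo against Ctrl-Mhi. More probe sets thus changed there than in the simulation, and the simulated shares may not hold for the data. Absent calls still do not show that changes of the sizes seen here were missing. Alternatives were other floors, scalings, filters, tests, probe sets and fits, and leaving out each array. Replicate numbers were taken to pair samples where, over probe sets averaging 500 units or more, every pair of deviations correlated above 0.1, which held for Cre-Mlo and Cre-Mhi (r of 0.177 to 0.474) and for HEL 48 h and Ctrl 48 h (0.111 to 0.239), though over all probe sets it held nowhere. The main fits left this pairing out. The labels call replicates separate samples, and p-values measure the spread between them. The HEL-Mhi and HEL-Mlo arrays were not used here.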

Additional observations from a re-analysis of the deposited data

Results flagged for a closer look

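For 12 genes and the median of the 35, 65 sets of 4 or 6 arrays were checked for an array far from the others by Dixon's test, which flags about 1 set in 20 by chance, and 5 were flagged. Cre-Mlo array 3 read 4176.3 units for Psmb5, where the other 3 read 4879.4 to 5001.2. Cre-Mhi array 3 read 2247.1 for Psmd14 against 2690.9 to 2740.7. In FxE Ctrl cells array 3 read 5909.6 for Psmc3 against 5421.3 to 5466.7, and array 2 read 2349.6 for Psme4 against 1584.7 to 1704.6. FxE HA array 6 read 17456.9 for Psma2 against 7654.2 to 10157.9 in the other 5, and it is also the array with the highest median of the 35 genes.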

How the results depend on the processing

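Psme4 kept its call in Cre-Mlo cells under all 17 limma alternatives against Ctrl-Mhi (adjusted p of 8.74e-05 to 0.00467) and all 17 against Cre-Mhi (0.000106 to 0.00665), but lost it against Cre-Mhi by the methods' t-test after Benjamini-Hochberg, and the median of the 35 genes kept its sign in every comparison of groups. The median of herbimycin A minus receptor deletion (-0.05) was 0.02 with median centring and 0.00 without Cre-Mlo array 1. Counts of called genes moved more. Except for the methods' t-test above, the share of all probe sets called under each alternative is not given here. These counts thus have no background and are not results about the 35 genes. With a floor of 50 units they were 1 in GFPpos, 1 in FxE HA, 8 in Cre-Mlo against Ctrl-Mhi, 2 against Cre-Mhi, 3 in Ctrl-Mhi against GFPneg, 11 in B6-M- and 1 for herbimycin A minus receptor deletion. With only probe sets of a mean of at least 200 units they were 7 and 2 in Cre-Mlo (against Ctrl-Mhi and Cre-Mhi), 1 in Ctrl-Mhi against GFPneg, 13 in B6-M- and 1 in FxD, and with log2 of signal plus 50, 1 in Ctrl-Mhi against GFPneg. In 1 fit of all 37 arrays they were 1 in GFPpos, 2 in FxE HA, 1 in Cre-Mlo against Ctrl-Mhi, 1 in Ctrl-Mhi against GFPneg and 4 in FxD. The methods' t-test called 1 gene each in Cre-Mlo against Ctrl-Mhi, B6-M-, FxD and HEL 48 h cells, and after Benjamini-Hochberg 1 in Cre-Mlo against Ctrl-Mhi, 0 against Cre-Mhi and 0 in B6-M-. On its dimmest probe set Psmc3 turned to -0.12 in B6-M-. The median in HEL 48 h cells was 0.29 with median centring, 0.24 with Psmc3ip and Psme3ip1 and 0.27 on the first scan day only.

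With the replicate block, B6-M- kept 0 of 6 calls and Cre-Mlo against Ctrl-Mhi 2 of 3 (without Psmc3), but numbers share only a name there. Where they pair, the block changed no call among the 35. For Cre-Mlo against Cre-Mhi that block also joined the Ctrl-Mhi arrays by number, so it did not test the pairs alone. Leaving out 1 array, counts ran from 0 to 1 in FxE HA, 1 to 4 in Cre-Mlo against Ctrl-Mhi and 0 to 5 in B6-M-, and medians from 0.11 to 0.31 in FxD, 0.15 to 0.27 in HEL 48 h, 0.06 to 0.21 in GFPpos, 0.06 to 0.12 in Cre-Mlo against Cre-Mhi and 0.02 to 0.10 in Cre-Mhi cells, and from -0.18 to -0.04 for the difference of herbimycin A effects. The counts in this paragraph have no background either, and the causes were not tested. With 3 or 4 arrays a group, a p that missed the threshold does not show equal levels.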
